A study of Mus musculus with 2 samples.

Results

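The 6 genes described here are the stefin A cystatins Stfa2, Stfa2l1, Stfa3, Cstdc4, Cstdc5 and Cstdc6, taken by symbol from the 55357 gene rows of the deposited matrices. They were chosen by their CPM ratios and detection between these same libraries, which earlier results had shown, so their levels are a description and carry no test. Stefins are small intracellular cystatins that bind and block lysosomal cysteine proteases of the cathepsin family. Human genomes carry a single stefin A gene, whereas in mice the gene has been copied into a cluster on chromosome 16. Mouse stefin A genes are known from neutrophils and their bone marrow precursors. During maturation, neutrophils fill their granules in order, and the granule protein genes Ngp, Camp (cathelicidin) and Ltf (lactoferrin) are transcribed in the marrow stages and switched off in blood neutrophils.

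The first library came from lungs of mice given 1V209-Cho-Lip, which the series title describes as a nanomedicine that activates TLR7, an endosomal receptor for single-stranded RNA. The second came from mice given PBS, the vehicle control. Both groups were female Balb/C mice with K7M2 tumours, a mouse osteosarcoma line placed orthotopically, and each library pooled the lungs of 3 mice. Dose, route, timing and age are not given in the sources used here.

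Each group is thus 1 library, so no replicate spread exists, no p-value is given, and a treatment response and a difference between libraries cannot be told apart for any value below. Intervals are 95% intervals and cover counting error only. After filtering, 12328 cells of the 1V209-Cho-Lip library and 12642 cells of the PBS library remained, with 46476852 and 45586276 unique molecular identifiers (UMIs, each standing for 1 captured RNA molecule). The deposited files shared 268 cell barcodes. Levels are UMI counts scaled to a common total (CPM) within the library or cell class named, and a ratio is 1V209-Cho-Lip over PBS.

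The 6 genes lie within 298.582 kb at chr16:36156811-36455392 (GRCm38, GENCODE vM21 gene models), all protein-coding. Stfa2l1 (ENSMUSG00000059657, chr16:36156811-36161953) and Cstdc4 (ENSMUSG00000079597, chr16:36184212-36188111, named Gm5483 in that release) are read from the plus strand at the low end. Cstdc6 (ENSMUSG00000079594, chr16:36321665-36334332, BC117090), Cstdc5 (ENSMUSG00000071561, chr16:36359382-36367748, BC100530), Stfa2 (ENSMUSG00000022902, chr16:36403992-36408457) and Stfa3 (ENSMUSG00000054905, chr16:36450537-36455392) follow on the minus strand. Their similarity bears on the counting. Stfa2 and Stfa2l1 were 96.4% identical over the coding sequence, and Cstdc5 and Cstdc6 95.2%, whereas Stfa2 and Stfa3 were 80.9% identical. The first 60 coding bases of Stfa2, Stfa2l1 and Stfa3 show how little separates the first pair, with capitals at the 13 positions where the 3 genes are not all alike (GENCODE vM21 transcripts).
Stfa2: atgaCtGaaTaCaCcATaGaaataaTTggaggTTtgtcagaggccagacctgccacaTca
Stfa2l1: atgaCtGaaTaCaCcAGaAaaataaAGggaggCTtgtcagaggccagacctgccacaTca
Stfa3: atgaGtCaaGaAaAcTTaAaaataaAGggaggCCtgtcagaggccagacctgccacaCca
Stfa2 and Stfa2l1 differed at 5 of these 60 positions, Stfa2 and Stfa3 at 12. The Cstdc genes are shown the same way over 60 matched coding bases, coding bases 22 to 81 of Cstdc4 and Cstdc5 and 19 to 78 of Cstdc6, with 15 such positions in capitals.
Cstdc4: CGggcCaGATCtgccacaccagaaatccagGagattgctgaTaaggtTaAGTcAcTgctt
Cstdc5: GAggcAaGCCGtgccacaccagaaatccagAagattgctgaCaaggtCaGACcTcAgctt
Cstdc6: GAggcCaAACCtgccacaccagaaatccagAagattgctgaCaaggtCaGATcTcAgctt
Cstdc5 and Cstdc6 differed at 5 positions here, Cstdc4 and Cstdc5 at 14.

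Only part of each transcript is shared with another gene over a stretch of 90 bases, taken here as a read length. Of all 90-base windows of the transcript, another gene held 2.09% for Stfa2 and 2.42% for Stfa2l1, which shared them with each other, and 0% for Stfa3. The share was 15.4% for Cstdc4 (with Csta2), 16.6% for Cstdc5 (with Cstdc6 and Stfa1) and 16.4% for Cstdc6 (with Cstdc5). In the last 300 bases it was 3.79% and 3.32% for Stfa2 and Stfa2l1, and 21.3%, 41.7% and 23.2% for Cstdc4, Cstdc5 and Cstdc6. Which transcript end the reads came from is not given in the sources used here. Counts of Cstdc4, Cstdc5 and Cstdc6 are therefore less certain as single genes than those of Stfa2, Stfa2l1 and Stfa3. The antisense gene Gm15845, which overlaps Cstdc5, held 25 UMIs in the 1V209-Cho-Lip library and 0 in the PBS library.

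Of the members, 5 also share sequence just upstream of their RefSeq starts. RefSeq start sites (GRCm38.p6) were available for Stfa2, Stfa2l1, Stfa3, Cstdc4 and Cstdc5, and the longest run common to the 120 bases before these 5 starts was 12 bases long. It is shown in capitals, with the 18 bases before it, because it marks how closely the promoters are related.
Stfa2l1, chr16:36156757-36156786, plus strand: gaggaggagtttacagaaACCTTTAAAACC
Cstdc4, chr16:36184162-36184191, plus strand: gaggaggagtttacagatACCTTTAAAACC
Cstdc5, chr16:36367571-36367600, minus strand: gaggaggagtttacagatACCTTTAAAACC
Stfa2, chr16:36408384-36408413, minus strand: gaggaggagcttacagaaACCTTTAAAACC
Stfa3, chr16:36455415-36455444, minus strand: aggaggagcttacagataACCTTTAAAACC
The run was found on the gene's strand in 10 of 32851 mouse promoters of this length, or 0.0304%. The other 5 were those of Csta3 and Stfa1, protein-coding cystatins of the cluster, of Cstdc3 and Gm7260, which lie in it and are typed as pseudogenes in GENCODE vM21, and of Gm39539. Its last base lay 25, 21, 1, 21 and 23 bases before the RefSeq start, in the order of the 5 lines. GENCODE places the starts of Stfa2 and Cstdc5 94 and 178 bases further upstream, and the same position for the other 3. By the GENCODE starts the run of Stfa2 and of Cstdc5 thus lies downstream of the start. The 120 bases were 83.1% identical between Stfa2 and Stfa2l1 and 54.8% between Stfa2l1 and Cstdc5. Further motifs were searched on both strands, TATAAA on the gene's strand. The letters TTNNGNAA, a loose C/EBP-type site, occurred before Stfa2, Stfa2l1 and Cstdc5 and in 18.0% of all promoters. GAGGAA, a PU.1-type core, occurred before Stfa2, Stfa2l1 and Cstdc4 and in 11.6% of all. TGANTCA (AP-1 type), TTCNNNGAA (STAT type), a kappa-B consensus (NF-kB type) and TATAAA occurred before none of the 5, and in 3.41%, 3.15%, 3.65% and 4.19% of all.

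In the whole libraries the 6 genes together held 1771 CPM with 1V209-Cho-Lip and 89.9 CPM with PBS, a ratio of 19.7 (19.1 to 20.3). It was 11.8 when CPM was averaged over cells and 12.8 with every cell thinned to 1000 UMIs. Neutrophils carried nearly all of it. Cells were assigned to 20 lung cell classes by detected marker genes, at least 3 of a class's 8 and at least 2 more than of any other class. Neutrophil-gated cells held 95.6% of the members' UMIs in the 1V209-Cho-Lip library and 94.8% in the PBS library. They numbered 4772 (38.7% of cells) and 1649 (13%), and gave 27.6% and 5.89% of all UMIs, a 4.69-fold difference in neutrophil RNA. Within these cells the members' level differed by a further 4.24-fold (4.11 to 4.38): 6131 CPM with 1V209-Cho-Lip and 1446 CPM with PBS, or 0.613% and 0.145% of neutrophil UMIs.

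Marker levels describe the gated cells but do not test the label, since the markers of all classes set the gate. A median of 7 of 8 neutrophil markers was detected per gated cell in the 1V209-Cho-Lip library and 6 in the PBS library. The summed level of the markers of 18 of the other classes was 3.58 to 347.7 CPM and 4.10 to 474.1 CPM. Airway epithelial markers were the exception, at 5074 CPM in neutrophil-gated cells of the 1V209-Cho-Lip library and 21429 CPM in those of the PBS library, and their part in the results was not tested. Gated cells were also deeper with 1V209-Cho-Lip, at a median of 2306 UMIs, than with PBS, at 1404.

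All 6 members were higher in neutrophil-gated cells of the 1V209-Cho-Lip library, by unequal factors. Stfa2 stood at 639 CPM with 1V209-Cho-Lip and 46.2 CPM with PBS, on 8208 and 124 UMIs, a ratio of 13.8 (11.6 to 16.7). Stfa2l1, its near copy from the other end of the cluster, had 1791 and 606 CPM, on 22994 and 1628 UMIs, a ratio of only 2.95 (2.81 to 3.11). The intervals of these 2 ratios lie far apart although the coding sequences are almost the same.

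Cstdc5 stood at 1914 CPM with 1V209-Cho-Lip and 227 CPM with PBS, on 24571 and 610 UMIs, a ratio of 8.43 (7.78 to 9.15). Cstdc6 was sparser, at 146 and 26.4 CPM, on 1873 and 71 UMIs, with a ratio of 5.52 (4.35 to 7.10). Cstdc4 resembled Stfa2l1, at 1553 and 531 CPM, on 19936 and 1425 UMIs, with a ratio of 2.93 (2.77 to 3.09). Stfa3 was the least counted member, at 86.8 and 8.94 CPM, on 1114 and 24 UMIs, with a ratio of 9.71 (6.49 to 15.2). All 6 passed 2-fold here and in the whole library. The same was true of 6.64% of 12010 genes with at least 20 UMIs in neutrophil-gated cells and of 6.73% of 20415 in the whole library (2-fold lower were 5.89% and 6.78%), from which nothing is read, since this contrast chose the members.

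**Figure D1:**
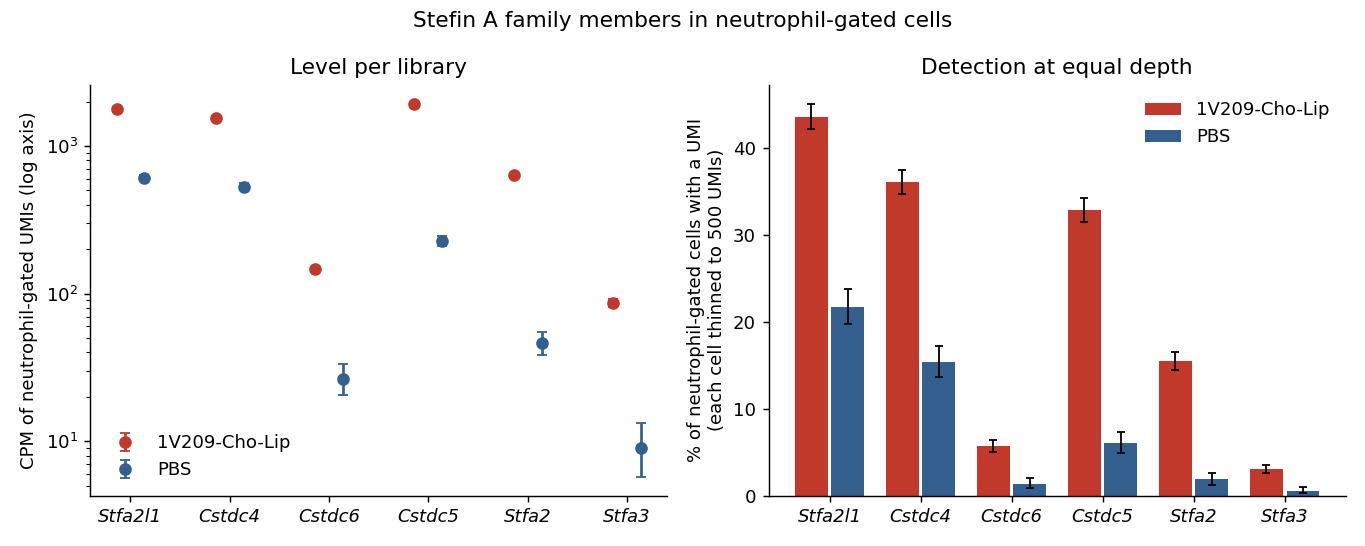
Level (left, CPM of the class on a log axis, points with exact Poisson 95% intervals) and detection (right, percent of cells with a UMI after thinning every cell to 500 UMIs, bars with Clopper-Pearson 95% intervals) of the 6 members in neutrophil-gated cells, 1V209-Cho-Lip in red and PBS in blue. The gap between libraries is widest for Stfa2, Cstdc5 and Stfa3 and about 3-fold for Stfa2l1 and Cstdc4.

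The mix of the family differed accordingly. In neutrophil-gated cells Cstdc5 made up 31.2% of the members' UMIs with 1V209-Cho-Lip and 15.7% with PBS, and Stfa2 made up 10.4% and 3.19%. Stfa2l1 made up 29.2% and 41.9%, and Cstdc4 25.3% and 36.7%. For every 100 UMIs of Stfa2l1 there were 35.7 (34.8 to 36.6) of Stfa2 with 1V209-Cho-Lip and 7.62 (6.29 to 9.15) with PBS. This comparison of a pair of genes within a library does not depend on how the libraries were scaled.

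Ordered by position, the members' ratios fell into a low and a high end. The plus-strand members at the low coordinates, Stfa2l1 and Cstdc4, had ratios near 3. The minus-strand members Cstdc6, Cstdc5, Stfa2 and Stfa3 had ratios between 5.52 and 13.8. Of the cystatins between them, Csta3 held 97.2 CPM with 1V209-Cho-Lip and 24.2 CPM with PBS, with a ratio of 4.02 (3.13 to 5.24). Stfa1 had 92 and 2 UMIs, a ratio of 9.62 with an interval from 2.59 to 80.7. Csta2, also there, had 9 and 3 UMIs in the whole libraries, and Cstdc3, typed as a pseudogene in GENCODE vM21, had none. Csta1, whose place was not looked up, had 2 and 0. Csta3 and Stfa1 are read from the plus strand too, so ratios near 3 describe the 2 plus-strand members and not every plus-strand cystatin. Among the members strand and position go together and cannot be told apart.

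**Figure D2:**
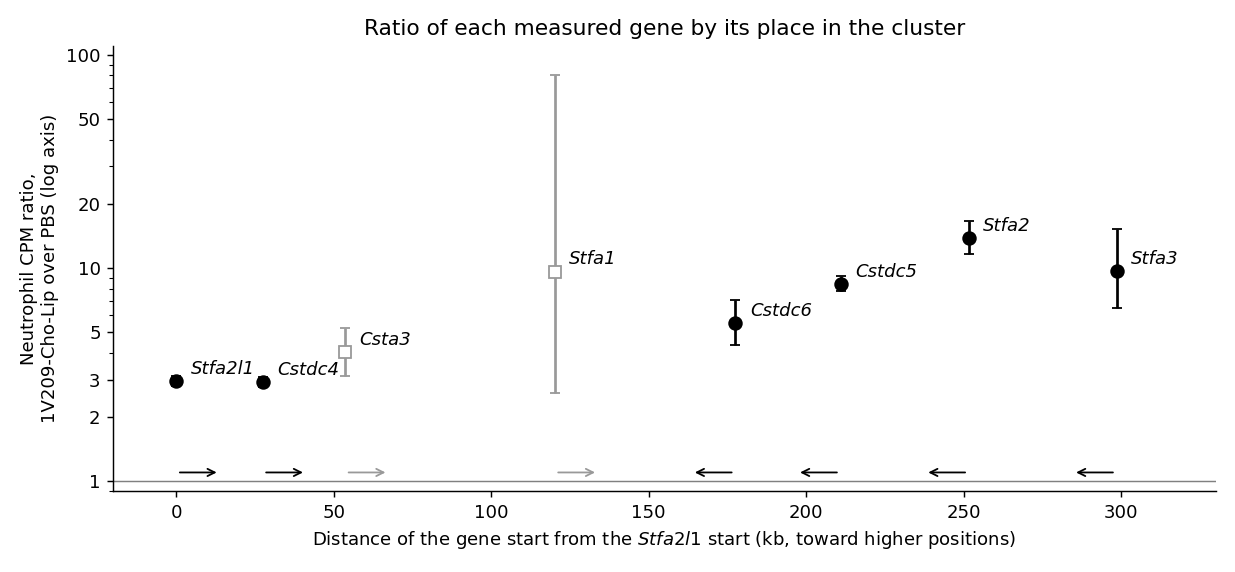
Neutrophil CPM ratio of 1V209-Cho-Lip over PBS (log axis, exact conditional binomial 95% intervals) against the distance of each gene's start from that of Stfa2l1, in kb. Filled circles are the 6 members, open squares are Csta3 and Stfa1, and arrows give the direction of transcription. The members' ratios are near 3 at the left and 5.52 to 13.8 at the right.

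Genes just outside the cluster had ratios below 1 in the whole libraries, but not all did in neutrophil-gated cells. In the whole libraries, where the members ran from 13.7 for Cstdc4 and Stfa2l1 to 63.0 for Stfa2, the 4 nearest protein-coding genes on the low side had ratios of 0.868 for Kpna1, 0.990 for Wdr5b, 0.810 for Fam162a and 0.712 for Ccdc58. On the high side they were 0.915 for Casr, 0.817 for Cd86, 0.782 for Ildr1 and 0.456 for Slc15a2. The intervals of Wdr5b (0.748 to 1.31) and Casr (0.409 to 2.03) held 1. Over all measured genes the whole-library median log2 ratio was -0.19, also on the lower side, so no edge of the cluster is read from these values. In neutrophil-gated cells 3 of these 8 held over 100 UMIs, with ratios of 1.04 for Kpna1, 1.46 (1.12 to 1.94) for Fam162a and 0.785 for Cd86. Of the sparser ones, Ccdc58 had 57 UMIs with 1V209-Cho-Lip and 7 with PBS (1.70), Ildr1 13 and 1 (2.72), Slc15a2 13 and 8 (0.340), Wdr5b 14 and 0, and Casr 0 and 1. The members' whole-library ratios depended on the weight given to cells: when CPM was averaged over cells they were 37.4 for Stfa2, 24.1 for Cstdc5, 21.1 for Stfa3, 13.7 for Cstdc6, 8.59 for Cstdc4 and 8.23 for Stfa2l1.

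More neutrophils carried the members, and more members each. At least 1 member UMI was found in 83.2% of neutrophil-gated cells with 1V209-Cho-Lip and 49.6% with PBS. After every cell was thinned to 500 UMIs, so that depth was equal, the shares were 65.8% (64.4 to 67.1) and 32.5% (30.2 to 34.8). At that depth Stfa2 was seen in 15.5% of cells with 1V209-Cho-Lip and 1.88% with PBS, against 29.97% and 3.70% before thinning. Cstdc5 was seen in 32.8% and 6.0% (53.7% and 12.6% before), Stfa2l1 in 43.5% and 21.6% (69.0% and 35.7%), and Cstdc4 in 36% and 15.4% (57.5% and 27.1%). Cstdc6 reached 5.70% and 1.39% (20.7% and 3.64%), and Stfa3 3.04% and 0.546% (9.93% and 1.39%). Thinning lowered every share and left each higher with 1V209-Cho-Lip. Cstdc5 UMIs sat in fewer cells than those of Stfa2l1: 24571 UMIs in 2562 cells with at most 178 in 1 cell, against 22994 in 3295 cells with at most 56, in the 1V209-Cho-Lip library.

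Members were found together in cells. At 500 UMIs, 39.4% of neutrophil-gated cells with 1V209-Cho-Lip and 10.7% with PBS held at least 2 of the 6 genes, and 8.74% and 0.606% held at least 4. A cell held 2.99 member UMIs of its 500 on average with 1V209-Cho-Lip and 0.753 with PBS, and at most 40 and 21. Of the 740 cells with Stfa2 in the 1V209-Cho-Lip library, 72.2% also held Cstdc5, against 25.6% of those without Stfa2. In the PBS library 51.6% (33.1 to 69.8) of 31 cells with Stfa2 held Cstdc5, against 5.13% of those without.

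Neutrophil maturity was followed through the sum of Ngp, Camp and Ltf UMIs per cell. Most neutrophil-gated cells of both libraries had none: 90.8% with 1V209-Cho-Lip and 95.8% with PBS. Between 1 and 4 were found in 7.77% and 3.03%, and 5 or more in 1.38% (66 cells) and 1.15% (19 cells). In cells with 0 of these UMIs the members summed to 5866 CPM with 1V209-Cho-Lip and 1422 CPM with PBS, a ratio of 4.13 (3.99 to 4.27). With 1 to 4 they summed to 7996 and 1605 CPM, a ratio of 4.98 (4.19 to 5.97), and with 5 or more to 7850 and 1990 CPM, a ratio of 3.94 (3.38 to 4.62). With each bin given the same weight in both libraries, its pooled share of neutrophil UMIs, the ratio was 4.19, against 4.24 as measured. The ratio of the members' sum thus ran from 3.94 to 4.98 over the bins. The bin of 0 carried 88.4% of the weight, so the equal-weight ratio had to lie near the measured one. The part of maturity in the difference was not tested.

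Single members followed maturity in different ways. In the 1V209-Cho-Lip library Stfa3 stood at 68.0, 148 and 370 CPM in the bins of 0, 1 to 4 and 5 or more, 5.44-fold (4.60 to 6.40) higher in the last than in the first. Cstdc6 was 3.47-fold (2.99 to 4.0) higher there, Cstdc5 2.21-fold (2.11 to 2.32) and Stfa2 2.0-fold (1.83 to 2.18). Stfa2l1 and Cstdc4 were lower in the granule-gene-high cells of that library, at 0.568 (0.520 to 0.621) and 0.633 (0.577 to 0.694) of their level in cells with none. In this library the 4 minus-strand members thus stood higher in the last bin than in the first, and the 2 plus-strand members lower. The 2 plus-strand members did not fall steadily, since both were highest in the bin of 1 to 4. Over the bins in order Stfa2l1 stood at 1807, 1969 and 1027 CPM, and Cstdc4 at 1530, 2044 and 969 CPM.

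In the PBS library these cells were few. Stfa2l1 was again lower there, at 0.547 (0.365 to 0.789) of its level in cells with none, on 29 UMIs with at most 9 in 1 cell. Cstdc5 stood at 1.83 (1.26 to 2.57), but on 35 UMIs of which 1 cell held 19, so no direction is read for it. For Stfa2 the value was 0.734 (0.149 to 2.20), for Cstdc6 0.896 (0.106 to 3.37) and for Stfa3 0 (0 to 4.84), intervals too wide to give a direction. Cstdc4 went the other way from the treated library, at 504, 649 and 1192 CPM over the 3 bins, 2.36-fold (1.92 to 2.89) higher in the last. As a result Cstdc4 alone did not separate the libraries in the bin of 5 or more, at 969 CPM with 1V209-Cho-Lip and 1192 CPM with PBS, a ratio of 0.813 (0.656 to 1.02). It rested there on 482 and 103 UMIs, of which 1 cell held 113 and 38. Stfa3 had 184 UMIs with 1V209-Cho-Lip and 0 with PBS in that bin, at least 10.7-fold higher against a floor of 3 UMIs. Stfa2 had 576 and 3 UMIs, a ratio of 33.4 (11.4 to 162). For every 100 UMIs of Stfa2l1, Stfa2 had 32.0, 51.3 and 113 over the 3 bins with 1V209-Cho-Lip, and 7.71, 3.64 and 10.3 with PBS. The upper bin edge fell among few cells: 14 and 1 neutrophil-gated cells held 4 to 6 of these UMIs. The lower edge did not: of the 371 and 50 cells in the bin of 1 to 4, 295 and 38 held exactly 1. Membership of that bin thus often rested on 1 UMI. A further 5 and 3 cells with 5 or more fell in no class.

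**Figure D3:**
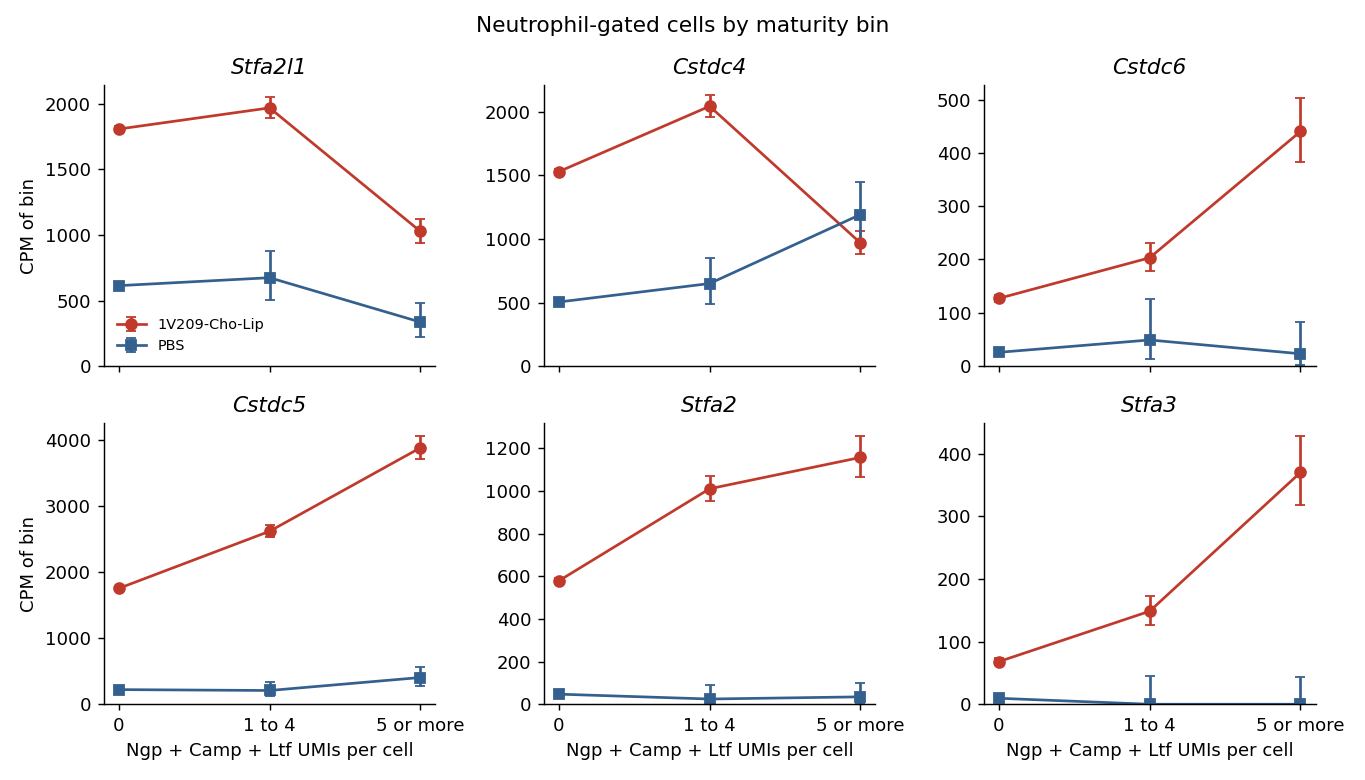
CPM of each member in neutrophil-gated cells binned by Ngp, Camp and Ltf UMIs per cell (x axis), 1V209-Cho-Lip as red circles and PBS as blue squares, with exact Poisson 95% intervals; the y axes differ between panels. Stfa2, Stfa3, Cstdc5 and Cstdc6 are highest in the last bin of the 1V209-Cho-Lip library, Stfa2l1 and Cstdc4 are lowest there, and Cstdc4 is the only member whose intervals overlap between libraries in that bin.

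Cells were also clustered without the members or the maturity genes among the features, and 12 clusters were mostly neutrophils. The libraries filled different clusters. Cluster 3 held 31.3% of the gated neutrophils with 1V209-Cho-Lip and 2.61% with PBS, whereas cluster 8 held 9.60% and 39.3% and cluster 1 held 6.85% and 25.3%. In cluster 3 the members summed to 9278 CPM with 1V209-Cho-Lip and 3308 CPM with PBS, in cluster 8 to 4160 and 1622 CPM, and in cluster 1 to 1980 and 882 CPM. The order of these 3 clusters was the same in both libraries, with cluster 3 the highest of the 3 in each.

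In the 7 clusters with at least 20 cells in each library the ratio ran from 1.74 (1.14 to 2.76) to 2.81 (2.61 to 3.04), with every interval above 1 and all below the 4.24 over all neutrophils. With equal weight given to the clusters in both libraries the summed ratio was 2.82, against 4.24 as measured. Stfa3 was then at 12.2, Stfa2 at 6.54, Cstdc5 at 4.76, Cstdc6 at 3.73, Stfa2l1 at 2.31 and Cstdc4 at 1.83. The Stfa3 value rests on 24 PBS UMIs in neutrophil-gated cells, and cluster 3 held 569 Stfa3 UMIs with 1V209-Cho-Lip and 0 with PBS. It lies above every single-cluster Stfa3 ratio given below, so its rank above Stfa2 is not read. Stfa2l1 and Cstdc4 stayed lowest. The Stfa2 ratio exceeded that of Stfa2l1, and the Cstdc5 ratio that of Cstdc4, in 7 of the 7 clusters. Across them Stfa2 ran from 3.60 to 10.4, Cstdc5 from 2.38 to 7.30, Stfa2l1 from 1.49 to 3.42 and Cstdc4 from 0.981 to 1.88. Cstdc6 ran from 2.29 to 4.88 and Stfa3 from 0 to 6.28, where the PBS library had a UMI. In cluster 15, where the PBS library had 49 cells, the PBS values rest on 1 UMI of Stfa2 and 4 of Stfa2l1. Smaller clusters had wider gaps. In cluster 4, which was high in Ngp and Camp, with 59 and 18 cells, the members summed to 7818 and 1735 CPM. In cluster 9, with 17 and 46 cells, they summed to 11334 and 1080 CPM, and in cluster 21, with 77 and 10 cells, to 4541 and 895 CPM.

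**Figure D4:**
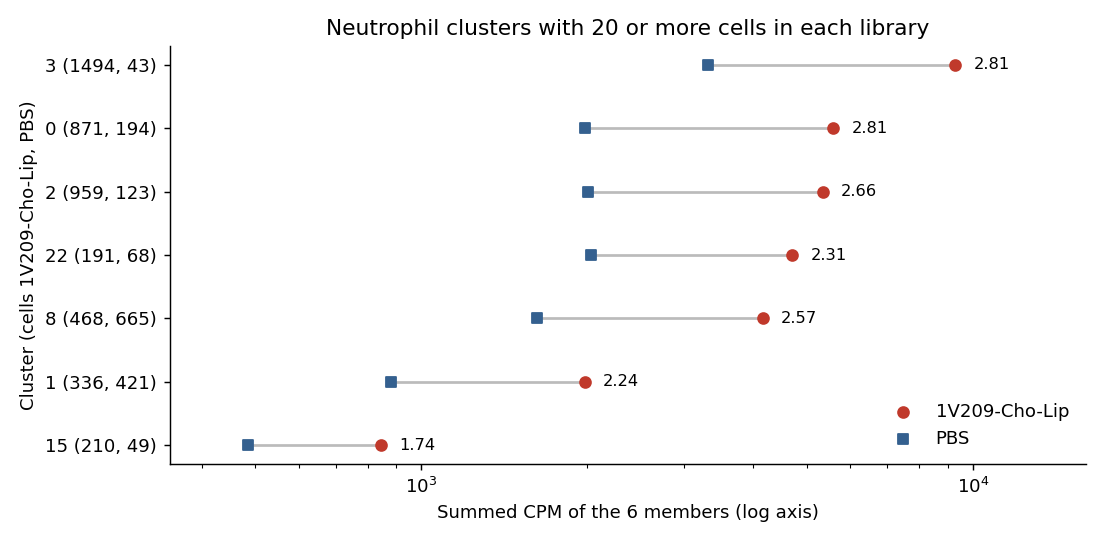
Summed CPM of the 6 members (log axis) in each of the 7 neutrophil clusters with at least 20 cells in both libraries, 1V209-Cho-Lip as red circles and PBS as blue squares, with cell numbers beside the cluster number and the ratio at the right. The red point lies to the right of the blue one in all 7 clusters, by 1.74 to 2.81-fold, and cluster 3, at the top, holds 9278 and 3308 CPM.

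Outside neutrophils the members were sparse. The 12 other classes compared had 50 or more cells per library. Their summed level ran from 5.99 to 109 CPM with 1V209-Cho-Lip (median 29.3) and from 0 to 29.6 CPM with PBS (median 1.35). The highest was in alveolar type 1 (AT1) cells, at 109 (87.5 to 133) and 14.5 (5.33 to 31.6) CPM. Endothelial cells followed at 59.3 (53.3 to 65.9) and 2.88 CPM. B cells had 41.4 and 1.29 CPM, T cells 33.6 and 0.984, NK cells 32.6 and 2.17, and alveolar type 2 cells 32.3 and 2.25. Fibroblasts had 26.2 and 0.881 CPM, nonclassical monocytes 25.1 and 29.6, classical monocytes 23.1 and 0.828, mesothelial cells 21.7 and 0, alveolar macrophages 13.6 and 0.892, and interstitial macrophages 5.99 and 1.40. From B cells down, the intervals of neighbours in this order overlapped in the 1V209-Cho-Lip library.

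The share of these cells with a member UMI serves as the background for the share in neutrophils. It was 4.55% to 13.5% with 1V209-Cho-Lip and 0% to 2.25% with PBS, and at 500 UMIs per cell 0% to 4.50% and 0% to 1.12%. All are under the 65.8% and 32.5% of neutrophils at that depth. Member UMIs were also set against neutrophil RNA. For every 100 UMIs of S100a8, an abundant neutrophil gene, the 12 classes together held 10.2 member UMIs with 1V209-Cho-Lip and 4.29 with PBS, and neutrophils held 12.5 and 4.76. Single classes ran from 3.14 to 17.5 with 1V209-Cho-Lip and from 0 to 10.2 with PBS. Classical monocytes had 3.14 and 1.49, and B cells 12.96 and 1.41. Where the member UMIs of the 12 classes came from was not tested. Of the member UMIs of these classes in the 1V209-Cho-Lip library, Stfa2l1 made up 32.8% (29.7 to 35.98), Cstdc5 31.1% (28.0 to 34.2), Cstdc4 21.9% (19.2 to 24.8) and Stfa2 11.0% (8.97 to 13.2). The interval held the share inside neutrophils for Cstdc5 and Stfa2, lay above it for Stfa2l1 and below it for Cstdc4. In the PBS library, on 70 UMIs, Stfa2l1 made up 48.6% (36.4 to 60.8), Cstdc4 34.3% (23.3 to 46.6), Cstdc5 11.4% (5.07 to 21.3) and Stfa2 2.86% (0.348 to 9.94), all 4 intervals holding the share inside neutrophils. No expression of the members by these classes is read from their counts.

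The ratio between libraries was above 1 in 11 of the 12 classes, with its interval above 1 in 10. S100a8 was higher in the same library in those 11 classes as well. The exception was nonclassical monocytes, with 8 member UMIs in the 1V209-Cho-Lip library and 19 in the PBS library, a ratio of 0.847 (0.321 to 2.03). Of the 19, 18 came from 1 cell, and without the highest cell of each library the counts were 6 and 1.

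**Figure D5:**
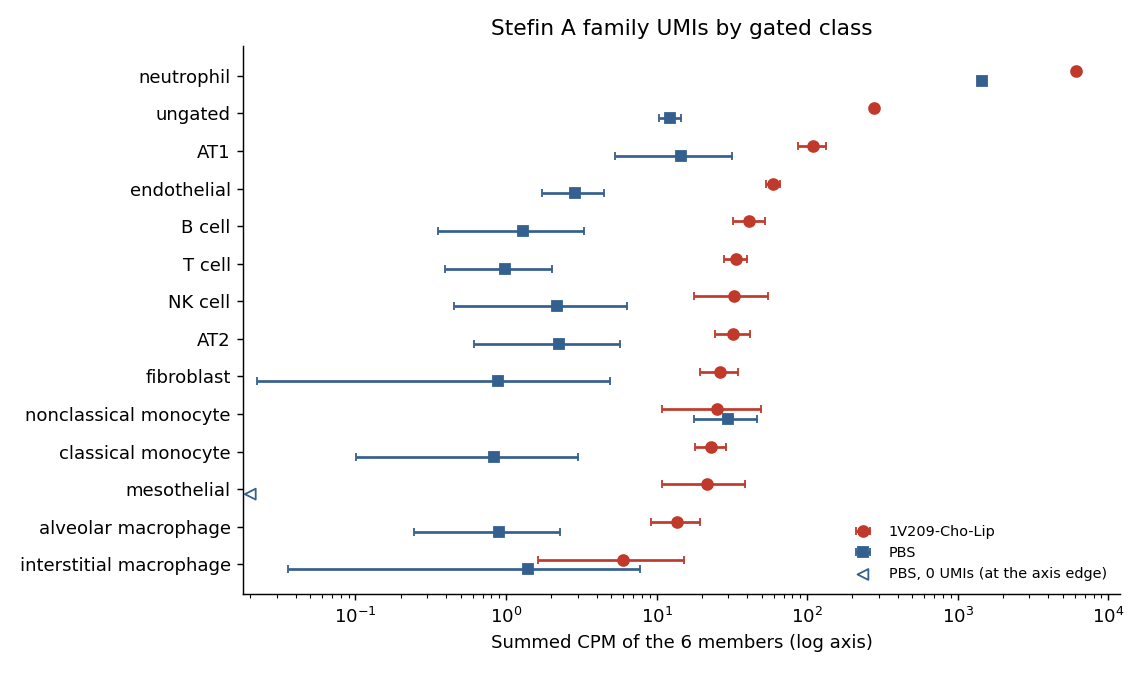
Summed CPM of the 6 members (log axis) by gated class for all classes of 50 or more cells per library and for cells in no class, 1V209-Cho-Lip as red circles and PBS as blue squares, with exact Poisson 95% intervals; the open triangle marks 0 UMIs. Neutrophils lie at 6131 and 1446 CPM, against 109 and 14.5 CPM in AT1 cells, and nonclassical monocytes are the only class with the blue point at the right.

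Across the 13 classes and 2 libraries (26 values, log2 of CPM + 1), the genes most like the members' sum were S100a9 and S100a8 (Pearson r = 0.97 each), calprotectin subunits, and Cxcr2 (r = 0.95), a neutrophil chemokine receptor. Retnlg, Adipor1, Il36g, Asprv1, Nlrp12, Ngp and Csta3 followed, with r between 0.90 and 0.86, among 12212 genes. S100a9, S100a8, Cxcr2 and Retnlg are also markers of the neutrophil gate, so their high r was in part set by the gating. The values share libraries and free RNA as well, so these are descriptions. In neutrophil-gated cells the same genes had smaller ratios than the members, apart from Csta3. These were 1.90 (1.78 to 2.03) for Asprv1, 1.62 for S100a8, 1.37 for S100a9, 1.35 for Cxcr2 and 1.11 for Retnlg. The members were chosen by this contrast, so nothing is read from the gap. Among the members themselves Stfa2 was most like Cstdc5 (r = 0.97), Stfa2l1 most like Cstdc4 (r = 0.95) and Stfa3 most like Cstdc6 (r = 0.93).

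Of the other cystatins, those of the same cluster were higher with 1V209-Cho-Lip and the abundant Cstb and Cst3 were not. Of 16 listed, 15 were in the files and 3 reached 20 UMIs in neutrophil-gated cells. Stfa1 (9.62), 1 of the 3, passed 2-fold, as 6.64% of all measured genes did, while Cstb, the other stefin, had 279 CPM with 1V209-Cho-Lip and 326 CPM with PBS and a ratio of 0.855 (0.794 to 0.921). Cst3, the secreted cystatin C, had 1103 and 1535 CPM and a ratio of 0.719 (0.694 to 0.744). In the whole libraries 7 were measured. Stfa1 and Cst8 (2.56, on 47 and 18 UMIs) were over 2-fold higher, Cst7 (0.422) was over 2-fold lower, beside 6.73% and 6.78% of all measured genes, and the list's median log2 ratio was -0.15, against -0.19 over all measured genes.

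Among the proteases that cystatins bind, 2 of 11 cysteine cathepsins and legumain were over 2-fold higher in neutrophil-gated cells and none over 2-fold lower, against 6.64% and 5.89% of all measured genes. Ctsk (cathepsin K) had 380 UMIs with 1V209-Cho-Lip and 11 with PBS, or 29.6 and 4.10 CPM, a ratio of 7.23 (3.99 to 14.6). Its level was higher in the whole libraries, at 57.7 and 37.4 CPM, a ratio of 1.54. The source of its UMIs in neutrophil-gated cells was not tested. Ctsl (cathepsin L) had levels of 196 and 82.3 CPM and a ratio of 2.38 (2.07 to 2.74). Ctsb, the most counted, had a ratio of 1.64 (1.47 to 1.82), Ctss 1.24, Ctsz 1.19 and Ctsh 0.765. The list's median log2 ratio was 0.24, against -0.12 over all measured genes. In the whole libraries 0 of the 11 were over 2-fold higher and 1 was over 2-fold lower, near the 6.73% and 6.78% of all measured genes.

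The maturity lists give the setting for the members. In the whole libraries 9 of 12 immature and 10 of 12 mature neutrophil genes were over 2-fold higher, and none lower, beside the larger neutrophil share and 6.73% and 6.78% of all measured genes. In neutrophil-gated cells, of 12 immature neutrophil genes, Lcn2 (2.02) and Fcnb (5.23, on 25 and 1 UMIs) were over 2-fold higher and none lower, beside 6.64% and 5.89% of all measured genes. Ngp had a ratio of 1.57 (1.5 to 1.65), Camp 1.03 (0.966 to 1.09), Ltf 1.86 (1.66 to 2.08), Mmp8 1.94, Anxa1 1.54 and Lyz2 0.838, and the list's median log2 ratio was 0.65, against -0.12 over all measured genes. Of 12 mature neutrophil genes, Wfdc17 was over 2-fold higher (30.3, 27.8 to 33.1), Ccrl2 over 2-fold lower (0.488), and the median was -0.15. The most counted of these, Il1b, G0s2 and Il1r2, had ratios of 0.939, 0.850 and 0.776. The members' ratios of 2.93 to 13.8 lie above those of Ngp, Camp and Ltf, and Wfdc17 is the one gene of these lists above Stfa2. Since this contrast chose the members, nothing is read from that order.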

How the data were processed

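Single-cell RNA was measured with the 10x Genomics platform in 2 lung libraries. The deposited values are UMI counts per gene and barcode, made with Cell Ranger 9.0.1 per the file headers and aligned to mm10 per the labels; no release of the annotation is given in the sources used here. GENCODE vM21 gave positions for 52081 of 55357 gene IDs.

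The deposited matrices held 13740 barcodes with 54843992 UMIs (1V209-Cho-Lip) and 14622 with 58156102 (PBS). A barcode was kept from 500 UMIs and 200 genes upward if mitochondrial UMIs were 20% or less; 20 and 62 failed. Scrublet in Scanpy 1.11.5 (expected rate 0.8% per 1000 barcodes) called 1392 (10.1%) and 1918 (13.1%) doublets, which were left out. Gates left 1729 (14.0%) and 1997 (15.8%) cells in no class, and 181 and 123 cells lay near the neutrophil gate. Median depth was 2510 and 2197 UMIs.

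Counts were summed per library and class, since cells are not replicates. CPM carries exact Poisson, shares Clopper-Pearson and ratios exact conditional binomial intervals (scipy 1.17.1); PCR and library effects lie outside them. The interval procedure was tested on simulated Poisson counts. These lack the uneven spread of UMIs between cells, so the test does not cover it. Leiden clusters used 2000 variable genes per library, 30 components, 15 neighbours and resolution 2.

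The members, gates and lists were chosen with earlier results of these data known. Named are all members, the 4 most counted and the highest and lowest of each list with at least 20 UMIs, the 10 genes most alike in pattern with at least 200 UMIs, 4 neighbours a side, and cystatins of the locus found after the symbols were read; other list genes with values, and the clusters and codetected pair named, were chosen after their values were seen. Alternatives covered filters, doublets, scaling with edgeR 4.0.16 (TMM) and median-of-ratios, thinning, gates, bins and list minimums. Analyses used Python 3.11.15, numpy 2.4.6, pandas 2.3.3, igraph 0.11.9, Biopython 1.88, matplotlib 3.10.9 and R 4.3.3.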

Additional observations from a re-analysis of the deposited data

Results flagged for a closer look

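Member UMIs were also counted in cells and barcodes that entered no class. Kept cells in no gate held 277.6 CPM of the 6 genes in the 1V209-Cho-Lip library and 12.3 CPM in the PBS library, on 2718 and 143 UMIs, a ratio of 22.6 (19.1 to 26.9). Barcodes called doublets held 1789 CPM and 90.1 CPM, on 14943 and 1128 UMIs, a ratio of 19.9 (18.7 to 21.1). Both were noted because they stand above the PBS library outside the cells compared, and both lie close to the whole-library ratio of 19.7. In the cells of no gate, 11.2 member UMIs were counted per 100 S100a8 UMIs with 1V209-Cho-Lip and 3.43 with PBS.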

How the results depend on the processing

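No alternative reversed a direction, among 37 values of the summed members and 222 of single members. The summed ratios are 19.7 in the whole library, 4.24 in neutrophil-gated cells and 4.19 with equal maturity mix. Values that moved by more than their counting interval were as follows. With called doublets kept, the neutrophil ratios were 4.61 and 4.53. Median-of-ratios scaling gave 22.1, 4.87 and 4.81 in that order, and TMM 22.6, 4.83 and 4.77; these scalings shifted all genes by 0.16 to 0.20 on the log2 scale. The mean of each cell's CPM gave 11.8, 3.98 and 3.95, and thinning to 1000 UMIs, which left out 957 and 1356 shallower cells, 12.8, 3.90 and 3.88. Without neutrophil-gated cells the whole-library ratio was 21.5, and without cells above 10000 UMIs 19. With S100a8 and S100a9 out of the gate the neutrophil ratios were 3.98 and 3.95. An equal mix of neutrophil clusters, added after the data were seen, gave 2.82. Counts of list genes past 2-fold depended on the minimum. Other cystatins counted 3 in the whole library, 6 with no minimum and 1 with at least 100 UMIs; in neutrophil-gated cells they counted 1, 2 and 0. Immature neutrophil genes counted 2 and, with at least 100 UMIs, 1. The cause of each move was not tested, apart from the fewer genes measured at a higher minimum. For single members, 170 of 222 values stayed within the counting interval. No paired analysis was possible because each group is 1 library, and no replicate could be left out. Counting error is largest for Stfa3 and Cstdc6 in PBS cells, on 24 and 71 UMIs.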
